A study of Homo sapiens with 6 samples.

Results

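MHC class I molecules carry peptides from inside the cell to its surface. The 9 genes described here are 4 class I heavy chains (HLA-B, HLA-C, HLA-E and HLA-F), the light chain B2M, the peptide transporter subunits TAP1 and TAP2, the loading chaperone TAPBP (tapasin) and the transcriptional coactivator NLRC5. They were chosen by symbol as a functional group, and all 9 are among the 21850 genes of the count table. RNA came from MM.1S, a human multiple myeloma cell line, at day 3 after infection with a hairpin against PRKCN (genotype PRKCN knockdown, shPRKCN, 3 libraries) or a scramble hairpin (genotype WT, shNT, 3 libraries). Both groups thus carried a lentiviral hairpin, a single cell line was used, and nothing in the labels says that the 3 libraries came from separate cultures, so p-values measure the spread between these libraries only.

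In the class I pathway, proteasomes cut proteins into peptides, and the TAP1-TAP2 dimer pumps the peptides into the endoplasmic reticulum. There tapasin bridges TAP to the empty heavy chain with its light chain beta-2 microglobulin and favours the exchange of weakly bound peptides. NLRC5, which has no DNA-binding domain of its own, joins a complex of RFX, NFY and CREB/ATF factors on class I promoters and is induced by interferon-γ, as are most genes of the pathway. HLA-B and HLA-C present peptides to cytotoxic T cells, HLA-E shows leader peptides of other class I chains to NKG2A receptors of natural killer cells, and HLA-F is a little-expressed nonclassical chain. Loss of class I at the surface is known as a route by which tumors, myeloma included, avoid T cells.

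Library totals ran from 35625564 to 37730003 counts, and the 9 genes together took between 0.586% and 0.591% of the counts in each library. PRKCN, listed as PRKD3, fell from 1262 ± 41.7 to 517 ± 23.4 CPM (counts brought to a common library size with TMM scaling; SD, n = 3 per group), a log2 fold change of −1.29 (SE 0.034, edgeR adjusted p = 8.2e-43). Of 10 plasma cell and myeloma markers, 10 were measured, among them SDC1 at 896 CPM in shNT cells and JCHAIN at 5358 CPM. Of the 10, 2 rose and 6 fell at an adjusted p under 0.05, against 26.5% and 27.8% of all genes tested. The fold limit was passed as well by 4, all lower, against 10.6% of all genes lower by both limits. These 4 were IRF4 (−1.85), XBP1 (−1.28), TNFRSF17 (−1.13) and SLAMF7 (−0.97). The summed level of the 10 markers was 10652 to 10817 CPM in shNT and 9599 to 9755 CPM in shPRKCN libraries. Markers of B cells summed to at most 0.267 CPM in any library and those of stroma to at most 1.47 CPM. T and NK markers summed to 10.5 to 11.4 CPM in shNT and 27.0 to 31.2 CPM in shPRKCN libraries, nearly all from CD3E, while CD3D and CD3G had at most 1 count. Myeloid markers summed to 16.2 to 19.1 CPM in shNT and 11.4 to 13.7 CPM in shPRKCN libraries, mostly from CD68, and LYZ had at most 2 counts. Whether these shifts play a part in the values of the 9 genes was not tested.

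The promoters of these genes carry short elements that their inducers are known to use. RefSeq start sites on GRCh38.p14, the build named in the submitters' processing notes, gave the 250 bases before the start for 7 of the 9 genes, in 8 windows because TAP1 has a pair of starts. Each window was searched on both strands for the IRF core AANNGAAA, for the interferon-stimulated response element (ISRE; GAAA and GAAA with NN between them), for a κB element (GGG, NN, TT, N and CC in a row) and for the CCAAT box CCAAT that NFY binds. Every ISRE match contains an IRF core. The windows below are shown for the gene with the largest change, TAPBP, for TAP1 and TAP2, which moved in opposite directions, and for HLA-B and B2M, a heavy chain and its light chain. They are written 5′ to 3′ in the sense of the gene, and capitals mark matches to the IRF core, ISRE or κB motif.
TAPBP, chr6:33314079-33314328, minus strand: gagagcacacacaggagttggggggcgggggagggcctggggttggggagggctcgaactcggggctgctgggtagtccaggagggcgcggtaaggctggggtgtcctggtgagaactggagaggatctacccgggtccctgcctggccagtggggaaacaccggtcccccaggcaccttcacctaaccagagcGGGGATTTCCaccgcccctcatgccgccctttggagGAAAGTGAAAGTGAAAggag
TAP1, upstream start, chr6:32853705-32853954, minus strand: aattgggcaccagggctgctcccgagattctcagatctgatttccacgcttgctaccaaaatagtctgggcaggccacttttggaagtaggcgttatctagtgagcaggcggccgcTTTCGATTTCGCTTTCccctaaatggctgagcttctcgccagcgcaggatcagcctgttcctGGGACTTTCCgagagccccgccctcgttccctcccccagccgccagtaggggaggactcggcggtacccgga
TAP2, chr6:32838740-32838989, minus strand: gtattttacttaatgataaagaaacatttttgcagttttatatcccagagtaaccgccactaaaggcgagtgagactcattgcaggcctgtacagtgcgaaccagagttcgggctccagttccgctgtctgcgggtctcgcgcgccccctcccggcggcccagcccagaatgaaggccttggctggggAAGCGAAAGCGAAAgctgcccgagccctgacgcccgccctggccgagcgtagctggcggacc
HLA-B, chr6:31357180-31357429, minus strand: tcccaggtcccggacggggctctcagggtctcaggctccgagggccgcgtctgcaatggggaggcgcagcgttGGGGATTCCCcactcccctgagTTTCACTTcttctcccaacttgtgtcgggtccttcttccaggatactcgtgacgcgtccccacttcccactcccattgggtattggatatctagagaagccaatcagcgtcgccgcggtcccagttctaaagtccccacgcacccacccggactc
B2M, chr15:44711267-44711516, plus strand: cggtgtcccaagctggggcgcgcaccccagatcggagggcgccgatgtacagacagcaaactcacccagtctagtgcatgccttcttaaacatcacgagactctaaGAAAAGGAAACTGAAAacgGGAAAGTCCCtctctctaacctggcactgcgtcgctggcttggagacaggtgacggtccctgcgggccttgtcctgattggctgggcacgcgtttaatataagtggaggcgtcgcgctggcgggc

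An IRF core was present before at least 1 start of all 7 genes with a window, against 20.3% of 35116 RefSeq promoter windows of the same length. An ISRE was found for 5 of the 7 genes (3.02% of all windows), a κB match for 4 (5.07%) and a CCAAT box for 5 (32.0%). TAPBP held its 2 overlapping ISRE matches 20 and 14 bases before the start and a κB match 56 bases before it. In TAP1 the ISRE matches began 134 and 128 bases before the upstream start, and the window of the downstream start held none of the motifs. HLA-B and HLA-C had an IRF core 155 and 151 bases before the start but no full ISRE. These are matches of letters and not measured binding.

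**Figure D1:**
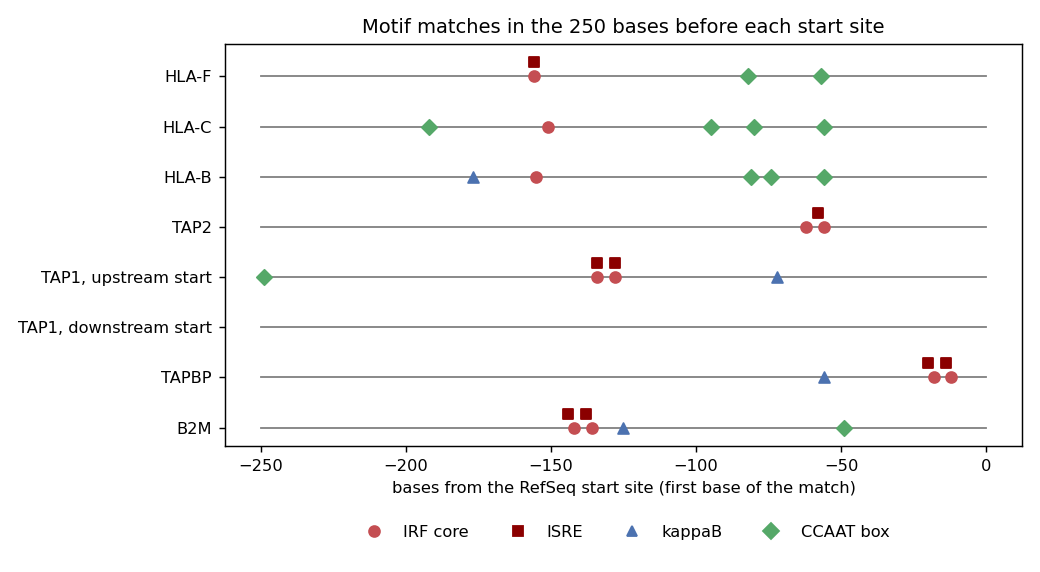
Positions of motif matches in the 250 bases before each RefSeq start site (x axis, bases from the start to the first base of the match) for 7 genes and 8 start sites (rows). Circles mark the IRF core, squares the ISRE, triangles the κB match and diamonds the CCAAT box. IRF cores stand on every row but that of the downstream TAP1 start, and those of TAPBP lie closest to the start, at 18 and 12 bases.

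After PRKCN knockdown the 9 genes did not move as a block. TAPBP rose most, to 153% of the control level, NLRC5 rose to 135% and TAP1 to 113%. HLA-E fell to 85.2%, TAP2 to 91.5% and B2M to 92.9% of control. HLA-B, HLA-C and HLA-F did not reach an adjusted p under 0.05. Rose and fell are used here for an adjusted p under 0.05 from edgeR's quasi-likelihood test over 13971 genes. A gene is called where its log2 fold change also exceeds 0.58 in size, the limits given in the methods of the study.

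By both limits 1 of the 9 genes was called, TAPBP, against 16.7% of all genes tested (6.15% higher and 10.6% lower). None was called lower (0 with edgeR and 0 with DESeq2, with 4 lower at an unadjusted p under 0.05 and any fold). Without the fold limit 3 were higher and 3 lower, together 6 of 9, against 54.2% of all genes. The groups did not overlap in 6 of the 9, against 58.8% of all genes. These shares are close to the background. The median log2 fold change of the 9 genes was −0.03 and that of all genes 0.0012. The median size of the change was 0.13 for the 9 genes and 0.25 for all genes on the log2 scale, so that most of these abundant transcripts moved little.

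**Figure D2:**
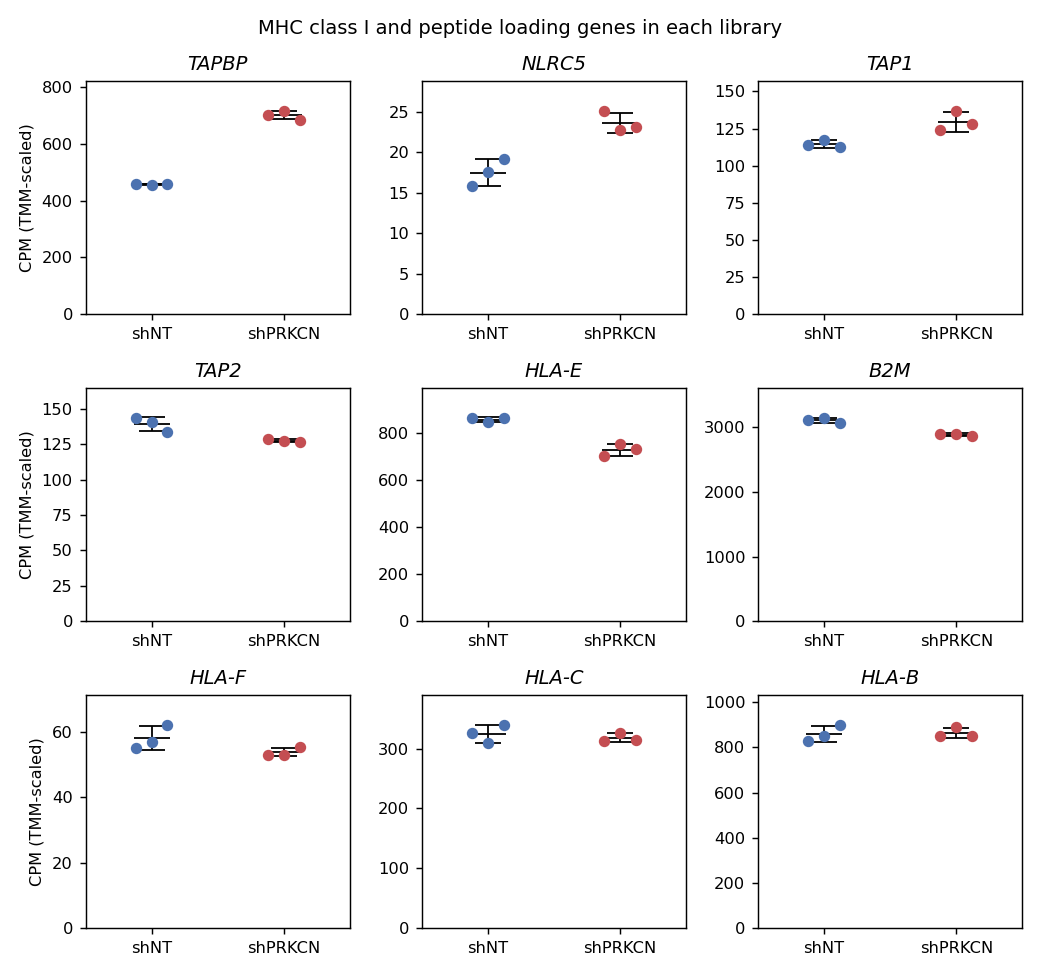
CPM after TMM scaling (y axis, from 0) of each of the 9 genes in the 3 shNT (blue) and 3 shPRKCN (red) libraries, with the mean and SD in black. The groups are apart for TAPBP, NLRC5, TAP1, TAP2, HLA-E and B2M and overlap for HLA-F, HLA-C and HLA-B.

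TAPBP, on chromosome 6 from 33299694 to 33314078, encodes tapasin, the chaperone that holds class I at the transporter. Its level was 458.0, 455.3 and 457.9 CPM in the shNT libraries and 701, 714 and 685 CPM in the shPRKCN libraries. The shNT values lay within a span of 3 CPM, and every shPRKCN library stood far above them. The log2 fold change was 0.62 (SE 0.033, edgeR adjusted p = 2.5e-26). Its 95% interval, 0.55 to 0.68, includes the fold limit of 0.58, so that the gene lies at the edge of the call. It was called with all 16 alternative fits, with values from 0.60 to 0.64. RGL2, a Ral guanine nucleotide exchange factor whose gene overlaps TAPBP, had a log2 fold change of 0.09 (adjusted p = 0.16) with 1304 to 1586 counts per library. The strandedness of the counting is not given in the sources used here.

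The genes with the pattern closest to TAPBP over the 6 libraries were KLHDC3, ITGAL (the αL integrin chain) and ST14 (the protease matriptase), among 8853 other genes with a mean of at least 10 CPM. Likeness was the root mean square difference of log2 CPM, after subtracting the shNT mean, and came to 0.016, 0.019 and 0.019 log2 units. KLHDC3 also lies on chromosome 6. Their own log2 fold changes were 0.64, 0.60 and 0.62.

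NLRC5, on chromosome 16 from 56989557 to 57083520, was the least abundant of the 9. It had 558, 643 and 717 counts in the shNT libraries and 934, 843 and 878 counts in the shPRKCN libraries. In CPM these were 15.8, 17.5 and 19.1 against 25.0, 22.7 and 23.1. All 3 shPRKCN libraries were above all 3 shNT libraries, with the widest spread within a group of the 9 genes relative to the level. The log2 fold change was 0.43 (SE 0.074, edgeR adjusted p = 7.9e-07), with a 95% interval of 0.285 to 0.579 that ends just under the fold limit. With single libraries left out it ranged from 0.36 without shNT 1 to 0.50 without shNT 3, and with limma on log2(FPKM + 1) it was 0.32.

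The transporter subunits moved in opposite directions. TAP1 (chromosome 6, 32845209 to 32853704) measured 113.6, 117.4 and 112.8 CPM in shNT and 123.8, 136.5 and 128.0 CPM in shPRKCN libraries. It rose by a log2 fold change of 0.18 (SE 0.040, edgeR adjusted p = 0.00015). TAP2 (chromosome 6, 32821831 to 32838739) measured 143.3, 140.9 and 133.9 CPM in shNT and 129.0, 127.0 and 126.8 CPM in shPRKCN libraries. It fell by 0.13 on the log2 scale (SE 0.039, edgeR adjusted p = 0.0039). For both genes the groups were apart, by a narrow margin for TAP2. The difference of TAP2 did not pass 0.05 with limma on FPKM, at adjusted p = 0.052 with log2(FPKM + 1) and 0.15 with log2(FPKM + 0.1).

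The ratio of the TAP subunits within each library does not depend on scaling. The log2 ratio of TAP1 to TAP2 counts was −0.34, −0.26 and −0.25 in shNT libraries and −0.06, 0.10 and 0.01 in shPRKCN libraries. The means differed by 0.30 (SD 0.047 and 0.082, n = 3 per group), with no overlap (2-sided exact permutation test, p = 0.1, the smallest that 3 against 3 allow, and 0.14 adjusted over 10 ratios). PSMB8-AS1, a noncoding RNA that overlaps the TAP1 locus, fell by 0.36 on the log2 scale with 506 to 678 counts per library. PSMB9, the immunoproteasome subunit whose gene starts next to the upstream TAP1 start, had a log2 fold change of −0.02 (95% interval −0.12 to 0.09). The log2 ratio of PSMB9 to TAP1 was thus lower in shPRKCN cells, at −1.72 against −1.53, again without overlap (exact permutation test, p = 0.1, adjusted 0.14).

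Among the heavy chains HLA-E, on chromosome 6 from 30489509 to 30494194, changed most. It measured 863, 845 and 863 CPM in shNT libraries and 703, 754 and 733 CPM in shPRKCN libraries. Every shPRKCN library was lower than every shNT library. HLA-E fell by 0.23 on the log2 scale (SE 0.033, edgeR adjusted p = 8.1e-09). HLA-B (chromosome 6, 31353875 to 31357179) measured 827, 852 and 899 CPM against 851, 889 and 850 CPM. Its groups overlapped, and the log2 fold change of 0.01 has a 95% interval from −0.06 to 0.07. HLA-C (chromosome 6, 31268749 to 31272092) measured 325, 310 and 339 CPM against 314, 327 and 315 CPM. Its log2 fold change was −0.03, with a 95% interval from −0.10 to 0.04. For both genes a change of 0.1 or more in the upward direction lies outside the interval.

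HLA-F (chromosome 6, 29723434 to 29738532) measured 55.2, 56.9 and 62.1 CPM in shNT and 53.0, 53.0 and 55.3 CPM in shPRKCN libraries. The groups overlapped through the lowest shNT and the highest shPRKCN library. The log2 fold change was −0.11 (SE 0.050, edgeR adjusted p = 0.055), and it was −0.15 without shNT 1 (adjusted p = 0.025) and −0.06 without shNT 3 (adjusted p = 0.38). HLA-F-AS1, which overlaps the locus, had at most 9 counts. HLA-G, the remaining nonclassical chain, had at most 5 counts per library.

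B2M (chromosome 15, 44711517 to 44718145), the light chain that all class I heavy chains need, measured 3120, 3142 and 3062 CPM in shNT and 2897, 2903 and 2864 CPM in shPRKCN libraries. It fell by 0.11 on the log2 scale (SE 0.031, edgeR adjusted p = 0.0025), and the groups did not overlap. With limma on log2(FPKM + 0.1) the adjusted p was 0.15, and with log2(FPKM + 1) and a filter at an FPKM of 1 it was 0.065.

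**Figure D3:**
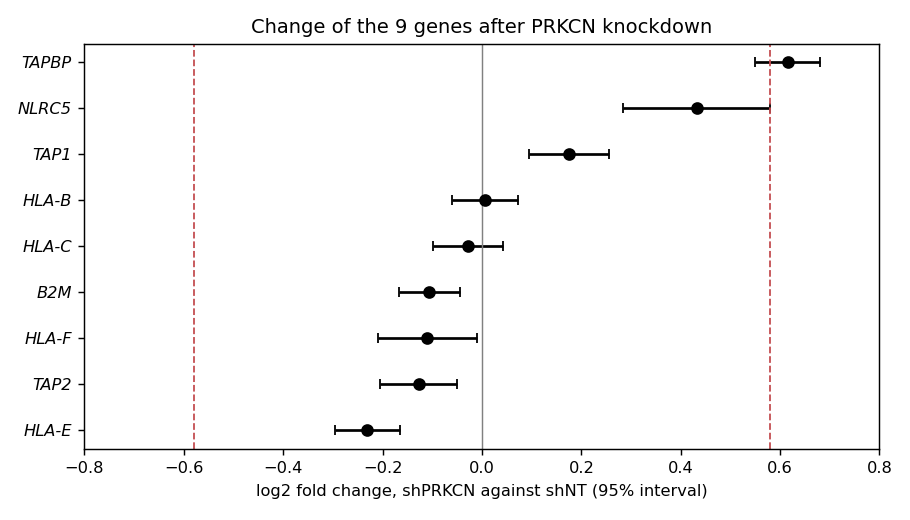
Log2 fold change of each of the 9 genes (x axis, shPRKCN against shNT) with its 95% interval from edgeR. Dashed lines mark the fold limit of 0.58 in each direction. TAPBP at 0.62 is past the limit, NLRC5 at 0.43 is below it, and the other 7 lie within 0.25 of 0.

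Class I genes are alike in sequence and differ between alleles, and reads were counted against a reference. Of the 50-base stretches in their protein-coding transcripts (GENCODE release 29), 2.12% of HLA-B, 6.17% of HLA-C, 5.13% of HLA-E and 1.25% of HLA-F also occur in another gene. How the alleles of MM.1S affected the counts was not tested. Of TAP2 stretches 32.7% recur in another gene model, AL669918.1. Of TAPBP stretches 5.13% recur, spread over 380 other genes, while B2M and NLRC5 share none.

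Levels of different genes were compared per length, as FPKM (the deposited fragment counts scaled to transcript length and library depth). The order was B2M (1085 ± 15.5 in shNT and 1022 ± 8.09 in shPRKCN; SD, n = 3), HLA-B (555 ± 23.8 and 566 ± 8.46), HLA-E (289 ± 2.92 and 249 ± 6.95) and HLA-C (209 ± 9.30 and 208 ± 2.52). TAPBP followed at 114 ± 0.184 and 177 ± 2.15 FPKM. TAP1 (39.9 ± 0.907 and 45.7 ± 1.83 FPKM), TAP2 (22.6 ± 0.790 and 20.9 ± 0.349 FPKM), HLA-F (9.98 ± 0.620 and 9.38 ± 0.301 FPKM) and NLRC5 (2.08 ± 0.201 and 2.85 ± 0.170 FPKM) came last. No neighbours in this order overlapped in either group. The order was the same in shNT and shPRKCN cells.

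The makeup of the pool of the 9 transcripts shifted more than its summed level. Summed over the 9 genes, the level was 5936 CPM (5921 to 5949) in shNT and 5835 CPM (5781 to 5926) in shPRKCN cells (mean and range of 3 libraries), and the groups overlapped (2-sided exact permutation test, p = 0.2). TAPBP took 7.70% ± 0.034 of these counts in shNT and 11.998% ± 0.125 in shPRKCN libraries. The share of B2M was 52.4% ± 0.778 against 49.5% ± 0.497, and that of HLA-E 14.4% ± 0.179 against 12.5% ± 0.333.

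Within libraries, 7 of 10 partner ratios did not overlap between the groups, each with p = 0.1 in the 2-sided exact permutation test and 0.14 adjusted over the 10. The log2 ratio of TAPBP to TAP1 was higher by 0.44 in shPRKCN cells, and that of NLRC5 to HLA-B by 0.43. The log2 ratio of HLA-E to HLA-B was lower, at −0.24 against −0.0027, and that of HLA-E to B2M was −1.98 against −1.86. HLA-B to B2M was higher, at −1.74 against −1.86. The ratios of HLA-C to B2M, HLA-F to B2M and HLA-C to HLA-B overlapped between the groups.

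**Figure D4:**
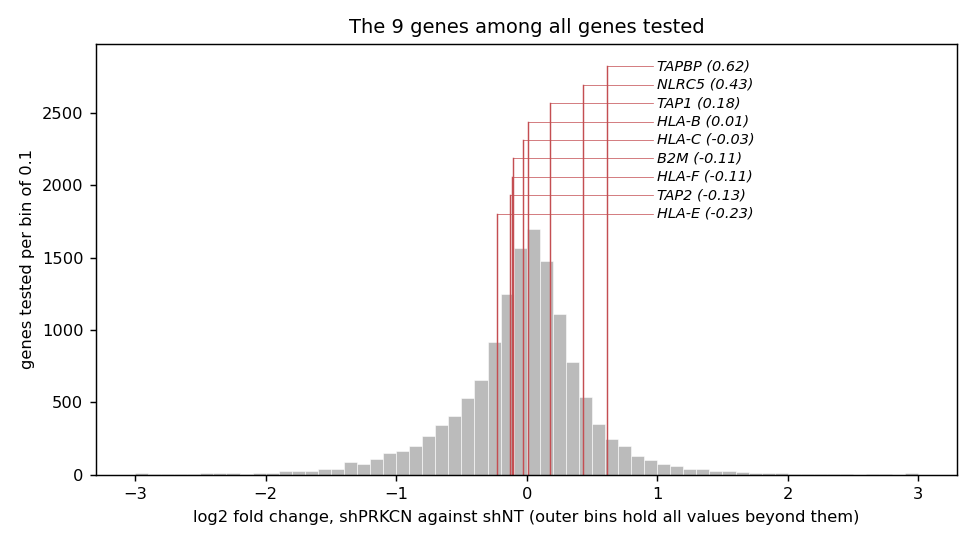
Log2 fold changes of all 13971 tested genes in bins of 0.1 (bars, y axis in genes per bin, outer bins with all values beyond), with the 9 genes as red lines. The 9 genes lie from −0.23 (HLA-E) to 0.62 (TAPBP), and 7 of them lie within 0.25 of 0.

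Genes around the pathway were counted by lists of known function. Of 9 peptide-trimming enzymes 8 rose and 0 fell at an adjusted p under 0.05, against 26.5% of all genes higher and 27.8% lower, and the list median was 0.19 on the log2 scale. None was called, against 16.7% of all genes (0 with edgeR and 0 with DESeq2, with 8 higher at an unadjusted p under 0.05). The endoplasmic reticulum aminopeptidases, which cut peptides to class I length, had the largest values, 0.40 for ERAP1 (183 against 241 CPM) and 0.45 for ERAP2 (152 against 208 CPM). The cytosolic tripeptidyl peptidase TPP2 rose by 0.27 on the log2 scale. LNPEP, an endosomal aminopeptidase, had 0.06 (adjusted p = 0.31).

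Of 9 loading chaperones and folding enzymes, 3 rose and 3 fell at the same limit, beside 26.5% and 27.8% of all genes. None was called by both limits, against 16.7% of all genes (0 with edgeR and 0 with DESeq2, with 3 higher and 3 lower at an unadjusted p under 0.05). The list median was −0.0024. TAPBPL, the tapasin-related peptide editor, rose by 0.29 on the log2 scale, and PDIA3, the disulfide isomerase bound to tapasin, by 0.11. CALR (calreticulin) fell by 0.31, and UGGT1, the glucosyltransferase that returns misfolded chains to calreticulin, fell by 0.47.

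The immunoproteasome subunits PSMB8 (−0.03, adjusted p = 0.52), PSMB9 (−0.02, adjusted p = 0.81) and PSMB10 (−0.07, adjusted p = 0.19) did not pass 0.05. Their 95% intervals on the log2 scale, from −0.17 to 0.09 over all 3, do not reach the fold limit. The proteasome activator subunit PSME1 rose by 0.11 and PSME2 had 0.04. Of this list of 5, 1 rose and 0 fell, beside 26.5% and 27.8% of all genes. None was called, against 16.7% of all genes (0 with edgeR and 0 with DESeq2, with 1 at an unadjusted p under 0.05). Of the constitutive catalytic subunits, PSMB5 rose by 0.31, while PSMB6 (−0.10) and PSMB7 (−0.06) did not pass 0.05.

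Of 21 factors of the class I promoter complex and its regulators, 4 rose and 8 fell at an adjusted p under 0.05, and 2 were called, both lower, where 26.5% of all genes rose, 27.8% fell and 10.6% were called lower. CIITA, the class II counterpart of NLRC5, fell by 1.32 on the log2 scale, from 67.0 to 26.8 CPM. EZH2, the methyltransferase of the Polycomb repressive complex, fell by 1.19, from 117 to 51.5 CPM, and its partner SUZ12 by 0.35. The DNA-binding partners RFX5 (−0.27), CREB1 (−0.26) and ATF1 (−0.27) fell as well, NFYC rose by 0.13, and NFYA, NFYB, RFXANK and RFXAP did not pass 0.05. IRF1, an activator of class I promoters, rose by 0.45, from 96.4 to 131 CPM, and USF2 by 0.56.

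Of 14 tested genes of interferon input, 6 rose (26.5% of all genes) and 3 fell (27.8%), and 2 were called lower (10.6%), JAK2 (−0.81) and SOCS3 (−1.12, from 74 to 86 counts in shNT to 24 to 56 in shPRKCN libraries). The receptor chain IFNGR2 rose by 0.49 and IRF9, the DNA-binding subunit of the ISGF3 complex, by 0.56 on the log2 scale. STAT2 had −0.06 (adjusted p = 0.15). IFNG had at most 2 counts.

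Of 13 tested genes of class I turnover, 8 rose and 4 fell, beside the same 26.5% and 27.8% of all genes, and SEL1L, the adaptor of the HRD1 ubiquitin ligase in the endoplasmic reticulum, was called lower at −1.28 (466 against 192 CPM). TMEM127 rose by 0.48, WWP2 by 0.21 and SUSD6 by 0.14, the last with groups that overlapped. These 3 form a known complex that lowers class I at the surface. Besides SEL1L, the genes of this list that fell were UBE2J1 (−0.40), MARCHF9 (−0.26) and RNF139 (−0.15). Of 7 tested class I-like genes 3 rose and 0 fell, beside the same shares. ULBP3, a ligand of the NKG2D receptor, was called higher at 1.48 (SE 0.202), its counts going from between 38 and 65 in shNT libraries to between 146 and 164 after knockdown. MICA (−0.34, adjusted p = 0.054) and MICB (−0.01, adjusted p = 0.84) did not pass 0.05.

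**Figure D5:**
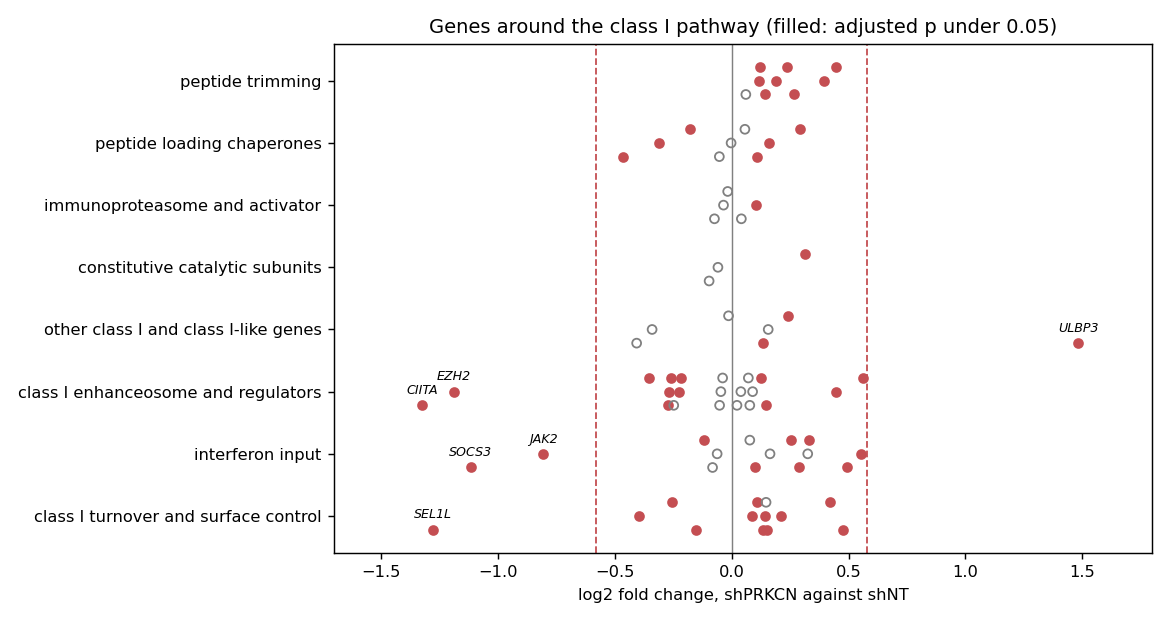
Log2 fold changes (x axis, shPRKCN against shNT) of the tested genes of 8 lists around the class I pathway (rows, with points spread vertically for legibility). Filled points have an adjusted p under 0.05, dashed lines mark the fold limit, and genes past both limits are named. Of the peptide-trimming enzymes 8 of 9 are filled, all to the right of 0.

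Along chromosome 6, 102 tested genes lie between the start of HLA-F and the end of TAPBP (29723434 to 33314078), a set drawn up after the values were seen. In it 4 were called higher, TAPBP among them, and 14 lower, against 6.15% and 10.6% of all genes, and the median over the region was −0.11 on the log2 scale. The 14 include the class II genes HLA-DRA, HLA-DRB1, HLA-DQB1, HLA-DOB and HLA-DPB1. IRF4, a factor that binds IRF elements, fell in the same libraries from 624 ± 12.5 to 173 ± 3.19 CPM (SD, n = 3). Its part in the values above was not tested.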

How the data were processed

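The authors deposited raw counts and FPKM for 21850 genes in 6 RNA-seq libraries. The submitters' processing notes name FastQC, HISAT2, StringTie and GRCh38.p14, and the counting program, annotation and strandedness are not given in the sources used here. The deposited FPKM follow from the counts, the library total and 1 length per gene within 1%, for all 21850 genes. Groups and replicate numbers were taken from the labels.

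Counts were scaled by TMM, and the quasi-likelihood test of edgeR 4.0.16 (R 4.3.3) was run on 13971 genes passing filterByExpr, with Benjamini-Hochberg adjustment over all of them. Alternatives used DESeq2 1.42.0, other scaling or filters, a replicate block, each library left out, and limma 3.58.1 on FPKM. Steps were tested on simulated data. Library pairs differed by 3.38 to 4.80 chi-square units per degree of freedom within groups and 63.8 to 70.2 between groups, so no library repeated another.

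The text names the 9 genes, PRKCN, genes past both limits in the pathway lists, all immunoproteasome genes and the 3 genes most like the member with the largest change; other genes were named after their values were seen. Members and lists were chosen with earlier results of these data known. Symbols matched RefSeq for 9 of 9 genes. Python 3.11.15 was used for the other steps. Values of some genes of these lists are not reported here.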

Additional observations from a re-analysis of the deposited data

How the results depend on the processing

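TAPBP was called with all 16 alternative fits. No member but TAPBP was called with any of them, and none moved the median of all genes by more than 0.021 on the log2 scale. With no fold limit, HLA-E (−0.23), B2M (−0.11), TAP1 (0.18), TAP2 (−0.13) and NLRC5 (0.43) also passed, so that 3 members were higher and 3 lower, and 3700 genes were higher and 3877 lower. The fold scale of log2(FPKM + 1) gave 314 genes higher and 647 lower, or 309 and 634 with a filter at an FPKM of 1, against 859 and 1475. The cause was not tested. With single libraries left out, HLA-B ran from −0.021 (without shNT 1) to 0.041 and HLA-C from −0.057 to 0.0041 (without shNT 3) on the log2 scale, so that their signs changed while neither was called. The difference in summed CPM was −101 and became −22.1 with library-size scaling. With the replicate block 854 genes were higher and 1463 lower, TAPBP had 0.61 and NLRC5 0.43, and no member changed its call. Deviations of same-numbered libraries correlated at −0.060, 0.0079 and 0.0021, and those of other pairs at −0.059 to 0.057. No shared effect of the replicate number was seen. These values cannot tell whether same-numbered libraries were prepared together. With 3 libraries per group, single-value permutation tests cannot go below 0.1.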
